A study of Homo sapiens with 24 samples.

Results

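The nuclear genome carries most of the genes for the oxidative phosphorylation system, and 83 of the 28277 genes listed in each count table belong to it by symbol. They were chosen as the symbols that begin with NDUFA, NDUFB, NDUFC, NDUFS or NDUFV and a digit, with UQCR, with ATP5 or with COX and a digit from 4 to 8. Of 89 such symbols, 6 were dropped because they contain a hyphen or a pseudogene suffix. By enzyme, 36 belong to complex I, 9 to complex III, 19 to complex IV and 19 to complex V. COX7A2L, an assembly or supercomplex factor, was counted with complex IV, and ATP5IF1, an inhibitor, with complex V. NDUFA4 and NDUFA4L2 were placed with complex IV, since NDUFA4 is a subunit of that enzyme despite its name.

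Complex I (NADH dehydrogenase) passes electrons from NADH to ubiquinone, complex III (cytochrome bc1) passes them on to cytochrome c, and complex IV (cytochrome c oxidase) hands them to oxygen. The protons pumped on the way drive complex V, the ATP synthase. Each enzyme except complex II combines nuclear-encoded subunits, made in the cytosol and imported, with subunits encoded in mitochondrial DNA. Transcription factors NRF1, GABP (an ETS factor) and YY1 and the coactivator PPARGC1A are known to act on many of the nuclear genes.

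RNA-seq was performed on PEO1 and PEO4, high-grade serous ovarian carcinoma cell lines derived from a single patient before and after resistance to chemotherapy. The study asked how expression differed between the lines and how it changed with pyridostatin (PDS), a small molecule that binds G-quadruplexes, which are 4-stranded structures of guanine-rich DNA. The first table holds 6 libraries of untreated cells, from PEO1 without functional BRCA2 (PEO1 A) and from PEO4, which has BRCA2 (PEO4 A). The second table holds 18 libraries, from PEO1 in which BRCA2 is restored (genotype BRCA2+, PEO1 B) and from PEO4 (PEO4 B), each untreated, after 2 h in 5 µM PDS and after 6 h in 5 µM PDS. Each of the 8 conditions had 3 libraries that the study's design calls biological replicates. All are cultures of established lines with no patient material besides, each line stands for 1 patient's tumour, and the BRCA2-restored PEO1 came from a spontaneous reversion in culture, so it differs from PEO1 A by its history as well as by BRCA2. The medium of PEO1 A and PEO4 A held sodium pyruvate and that of the second pair did not. The methods name a library kit for the first pair only.

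Library totals on genes lay between 32528913 and 63882077 counts in the first table, between 18699929 and 22375644 in the untreated libraries of the second and between 33260167 and 43713947 in its PDS-treated libraries. Of 12 markers of serous ovarian carcinoma, 10 or 11 exceeded 1 CPM (a count scaled to a library of 1e+06 counts) in every condition, and of 16 markers of immune, endothelial, fibroblast, liver and muscle cells 2 or 3 did, with a summed level of 36.5 to 86.1 CPM per library. The untreated libraries of the second table stood apart on measures that do not concern these genes. Ribosomal RNA genes took 0.217 to 0.474% of their counts, against 0.0164 to 0.0369% in the PDS-treated libraries and at most 0.000208% in the first table. The library set and the treatment therefore cannot be told apart in any comparison of PDS with untreated cells, whereas 6 h against 2 h rests on treated libraries alone.

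**Figure D1:**
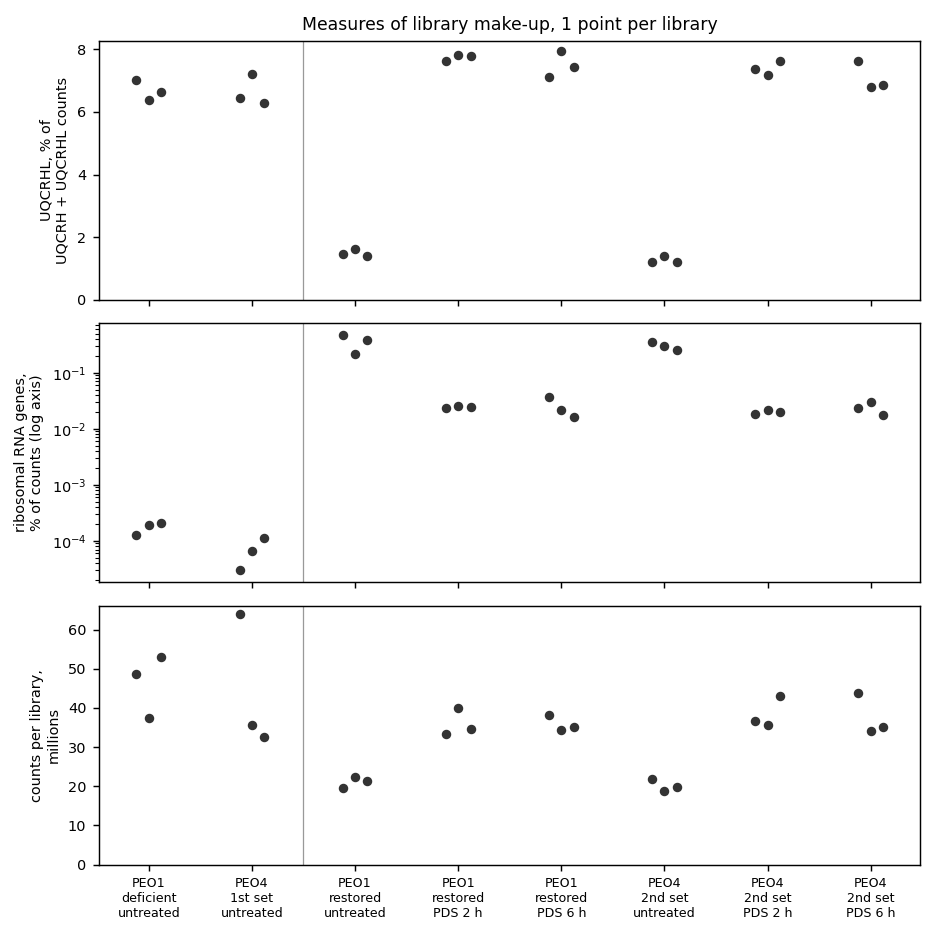
Library measures in the 8 conditions, 1 point per library: UQCRHL as a percentage of the counts of UQCRH and UQCRHL, ribosomal RNA genes as a percentage of all counts on a log axis, and total counts in units of 1e+06. Deficient PEO1 is PEO1 A, restored PEO1 is PEO1 B, and the vertical line separates the tables. The 6 untreated libraries of the second table lie at 1.19 to 1.62% for UQCRHL, below all other libraries (6.27 to 7.94%), and above all others for ribosomal RNA.

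The tables also treated overlapping genes differently. The read-through row NDUFC2-KCTD14 had 0 counts in all 6 libraries of the first table and between 2597 and 10423 in the second, and SLMO2-ATP5E, which overlaps ATP5F1E, had 0 to 2 counts in the first and 3307 to 17427 in the second. The members under those rows moved with them: NDUFC2 had 829 to 1863 counts in the first table and 2564 to 10296 in the second, and ATP5F1E had 378 to 867 and 2143 to 12870. In all, 29 of the 83 members overlap another listed gene, and whether counting used strand is not given in the sources used here, so their values are less certain. Among them are ATP5PF, which overlaps GABPA, and UQCRQ, which overlaps GDF9. GDF9 had 13 to 99 counts in the first table and 488 to 2619 in the second. Levels were compared within a table only.

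The start of each gene was examined in RefSeq promoters of GRCh38.p14, from 250 bases before to 50 bases after the start of transcription, which were found for 64 of the 83 members. The NRF1 core GCGCATGC, searched on both strands, was present in 11 of the 64 windows (17.2%), against 3.27% of all 27305 promoters. The YY1 core AAGATGGCG was present in 7 (10.9%, against 1.85%) and the ETS core CCGGAAGT in 8 (12.5%, against 4.44%), and 22 members held at least 1 of these motifs. A G-quadruplex pattern, 4 runs of at least 3 G with 1 to 7 bases between, on either strand, was present in 10 (15.6%, against 24.1% of all promoters). Among the 15958 promoters of genes tested in the second table, the NRF1 core was present in 4.29% and the YY1 core in 2.75%. There the ETS core was present in 6.32% and the G-quadruplex pattern in 30.8%. Shown here are the 250 bases upstream of 4 members, 5′ to 3′ on the strand of the gene, with matches in capitals. ATP5ME, which had the largest rise at 2 h in PEO4 B after UQCRHL and the low-count COX6B2, lies on the minus strand (chr4:674277-674526) with an NRF1 core at -78. NDUFS6 (plus strand, chr5:1801157-1801406) has an NRF1 core at -46 and, on the opposite strand, a G-quadruplex pattern. UQCRQ (plus strand, chr5:132866392-132866641), which was higher in PEO4 in both untreated pairs, has an ETS core at -54. COX6A1 (plus strand, chr12:120437863-120438112), whose response differed between the lines, has NRF1 cores at -174 and, on the opposite strand, at -218.
ATP5ME: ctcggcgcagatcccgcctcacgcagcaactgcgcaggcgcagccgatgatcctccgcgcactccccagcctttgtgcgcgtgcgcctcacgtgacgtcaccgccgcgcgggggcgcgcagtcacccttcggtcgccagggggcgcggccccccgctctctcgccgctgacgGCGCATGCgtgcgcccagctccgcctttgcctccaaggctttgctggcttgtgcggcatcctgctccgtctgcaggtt
NDUFS6: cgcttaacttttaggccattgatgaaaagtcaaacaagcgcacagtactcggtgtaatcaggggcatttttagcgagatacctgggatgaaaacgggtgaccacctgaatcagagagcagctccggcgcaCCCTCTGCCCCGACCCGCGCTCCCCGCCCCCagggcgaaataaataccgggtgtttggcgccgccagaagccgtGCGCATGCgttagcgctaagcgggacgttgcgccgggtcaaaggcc
UQCRQ: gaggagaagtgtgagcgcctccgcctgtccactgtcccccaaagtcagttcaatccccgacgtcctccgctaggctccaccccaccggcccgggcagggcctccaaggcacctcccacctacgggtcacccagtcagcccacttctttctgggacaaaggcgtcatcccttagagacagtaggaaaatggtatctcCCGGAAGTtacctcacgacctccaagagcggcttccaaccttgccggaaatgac
COX6A1: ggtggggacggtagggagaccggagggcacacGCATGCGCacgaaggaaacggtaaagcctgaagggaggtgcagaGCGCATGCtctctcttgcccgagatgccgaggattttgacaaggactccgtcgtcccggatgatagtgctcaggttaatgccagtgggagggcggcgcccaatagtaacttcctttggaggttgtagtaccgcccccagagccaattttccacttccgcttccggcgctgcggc

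The coding sequences of UQCRH and UQCRHL are shown because the pair bears on how far counts can be assigned. UQCRH encodes the hinge protein of complex III, from 4 exons on chromosome 1 (46303698 to 46316776), and UQCRHL is a 1-exon copy at 15807374 to 15807649 of the same chromosome. Their coding sequences of 276 bases are 98.6% identical, with 4 differing bases in capitals. Counted from 1 at the A of the start codon and written with the UQCRH base first, these are G158A, G167A, G231A and G233A, and they change 3 of 91 residues. The longest stretch without a difference is 157 bases.
UQCRH: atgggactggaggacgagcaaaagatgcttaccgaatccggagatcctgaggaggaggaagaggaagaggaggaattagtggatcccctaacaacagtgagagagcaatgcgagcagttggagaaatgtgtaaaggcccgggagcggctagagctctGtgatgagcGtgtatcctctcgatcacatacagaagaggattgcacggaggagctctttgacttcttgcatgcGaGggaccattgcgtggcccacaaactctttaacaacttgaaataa
UQCRHL: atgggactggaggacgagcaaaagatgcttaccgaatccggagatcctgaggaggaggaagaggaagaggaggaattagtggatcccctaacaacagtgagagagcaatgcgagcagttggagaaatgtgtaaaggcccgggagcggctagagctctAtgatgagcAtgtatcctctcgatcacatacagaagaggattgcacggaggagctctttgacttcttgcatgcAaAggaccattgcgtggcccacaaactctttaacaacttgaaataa

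Most members were expressed at a high level, and the tissue-restricted isoforms were not. The median level of the members tested was 6.42 on the log2 CPM scale in the second table, against 4.16 over all genes tested. Per kilobase of transcript (CPM divided by the length of 1 reference transcript), 4 members held the first place in at least 1 of the 8 conditions. UQCRH ranked 1 to 4 across conditions (293 to 531 CPM per kilobase), ATP5F1B, the catalytic beta subunit of ATP synthase, 1 to 6 (354 to 535), NDUFB9, an accessory subunit of complex I, 1 to 6 (219 to 608) and ATP5ME, subunit e of ATP synthase, 1 to 12 (156 to 795). The widest range was thus that of ATP5ME.

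Where an enzyme subunit has a general and a restricted isoform, these cells carried the general one. COX6A2 and COX7B2, isoforms of muscle and testis, and COX8C of testis had 0 counts in all 24 libraries, which allows up to 3 counts in each. COX4I2, the isoform of lung, had at most 4 counts in a library and COX7A1 of heart and muscle at most 17, while COX4I1 had between 2170 and 10325. NDUFA4L2, known as a hypoxia-induced relative of NDUFA4, had group means of 0.266 to 0.807 CPM against 39.6 to 76.1 CPM for NDUFA4. The filter on low counts left 74 members tested in the first table and 75 in the second, COX6B2 being the member tested in the second alone. NDUFA3 and NDUFA6 were among those left out, with at most 6 and at most 1 count in a library, although both are subunits of complex I in general use. The cause was not tested.

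In untreated cells, the median of the members did not shift between the lines, although some summed levels did. In PEO4 A relative to PEO1 A, 26 of 74 members were higher and 21 lower at an adjusted p under 0.05 (by the quasi-likelihood test of edgeR, Benjamini-Hochberg adjusted, here and below), where 30.1% of all genes tested were higher and 31.6% lower. In PEO4 B relative to PEO1 B, 26 of 75 were higher and 25 lower, where 34% of all genes were higher and 34.6% lower. On the log2 scale the median difference among members was -0.02 in the first pair and -0.01 in the second, against -0.01 and 0.00 over all genes tested. Only 1 member in each pair also passed an absolute log2 fold change of 1 (COX7A2 in the first, COX6B2 in the second), where 25.8% and 24.8% of all genes did. COX6B2 had few counts and passed the filter on low counts only through PEO4 B, where it is high. By enzyme, complex I had more members lower than higher (9 higher and 13 lower in the first pair, 7 and 15 in the second), and complex IV more members higher than lower (5 and 2, then 8 and 2). The difference between enzymes was not tested. Summed levels of complex IV were 1229 to 1334 CPM in PEO1 A and 1474 to 1553 in PEO4 A, then 1006 to 1057 in PEO1 B and 1116 to 1268 in PEO4 B. Sums of complex III also did not overlap in either pair, those of complex I overlapped in both, and those of complex V overlapped in the second alone. All members took 0.7035 to 0.7475% of counts in PEO1 A and 0.772 to 0.855% in PEO4 A, and the ranges of the second pair overlapped.

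The 2 pairs are separate libraries, so they can be set against each other. Of the 74 members tested in both, 16 were higher in PEO4 in both pairs, 13 were lower in both, 6 passed in opposite directions, 12 passed in the first pair alone, 15 in the second alone and 12 in neither. Among the 35 that passed in both, 82.9% had the same direction, against 87.6% of the 7464 genes that passed in both over the whole tables. The members that passed in both with 1 direction made up 39.2% of those tested, against 42.5% of all genes tested in both.

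**Figure D2:**
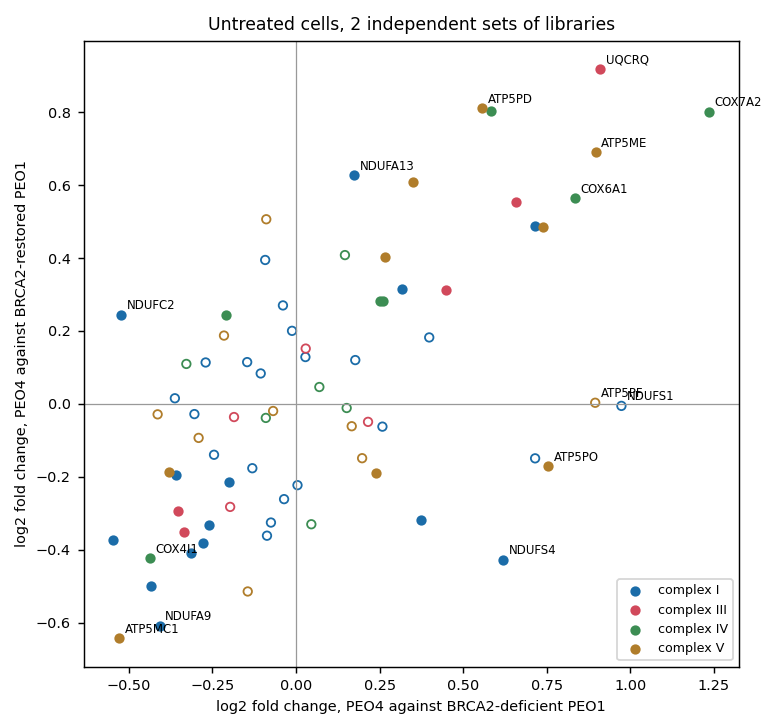
Log2 fold change of each member, PEO4 over PEO1 in untreated cells, in the first pair (x axis) and the second pair (y axis). Colours mark the complex, and filled points passed the test in both pairs. COX7A2, UQCRQ and ATP5ME lie farthest up and to the right (1.24 and 0.80, 0.91 and 0.92, 0.90 and 0.69), while ATP5PO and NDUFS4 lie below 0 on the y axis alone.

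COX7A2, the general isoform of a small subunit of cytochrome c oxidase (chromosome 6, 75237675 to 75250298), was among the members with the largest difference between the untreated lines. Its level was 47.1, 43.1 and 51.1 CPM in PEO1 A and 123, 107 and 103 CPM in PEO4 A. In the second pair it was 35.4, 35.8 and 36.1 CPM in PEO1 B and 63.6, 67.9 and 55.7 CPM in PEO4 B. The groups did not overlap in either pair. Its log2 fold change was 1.24 (SE 0.091, adjusted p = 1.5e-07) and 0.80 (SE 0.070, adjusted p = 2.3e-10).

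UQCRQ, a small subunit of complex III (chromosome 5, 132866642 to 132868847), whose promoter is printed above, behaved alike. It stood at 26.7, 28.5 and 28.3 CPM in PEO1 A against 51.4, 55.5 and 50.1 in PEO4 A, and at 38.0, 40.0 and 40.0 CPM in PEO1 B against 78.6, 79.3 and 65.1 in PEO4 B. Again no library of one line reached the range of the other, and the log2 fold changes were 0.91 (SE 0.081) and 0.92 (SE 0.078). ATP5ME was higher by 0.90 (SE 0.094) and 0.69 (SE 0.080), UQCRB, another small subunit of complex III, by 0.66 and 0.55, and COX6A1, the general isoform of subunit 6A of complex IV, by 0.83 and 0.56. Lower in PEO4 in both pairs were COX4I1, the general isoform of the largest nuclear-encoded subunit of complex IV (-0.44 and -0.42), ATP5MC1 (-0.53 and -0.64) and NDUFA9 (-0.41 and -0.61).

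Other members differed in 1 pair and not in the other. NDUFS1, the large iron-sulfur subunit of complex I, had 74.6, 68.1 and 73.0 CPM in PEO1 A and 166, 131 and 126 CPM in PEO4 A, without overlap (log2 fold change 0.97, SE 0.101, adjusted p = 3.8e-06). In the second pair its libraries lay at 98.3 to 102 CPM in PEO1 B and at 98.3 to 101 CPM in PEO4 B, and the log2 fold change was -0.01. ATP5PF, a subunit of the stalk that holds the 2 parts of ATP synthase together, differed by 0.90 (SE 0.088) in the first pair and by 0.00 in the second.

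The 6 members with opposite signs were ATP5F1A (0.24 and -0.19), ATP5PO (0.75 and -0.17), COX7A2L (-0.21 and 0.24), NDUFB3 (0.37 and -0.32), NDUFC2 (-0.52 and 0.24) and NDUFS4 (0.62 and -0.43). NDUFS4, an accessory subunit of the NADH-oxidising arm of complex I, went from 21.0 to 24.8 CPM in PEO1 A to 35.0 to 36.6 in PEO4 A, and from 22.3 to 24.8 CPM in PEO1 B to 16.4 to 18.7 in PEO4 B. NDUFC2 lies under the read-through row that the tables counted differently. The pairs differ in BRCA2, medium and counting, which cannot be told apart.

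**Figure D3:**
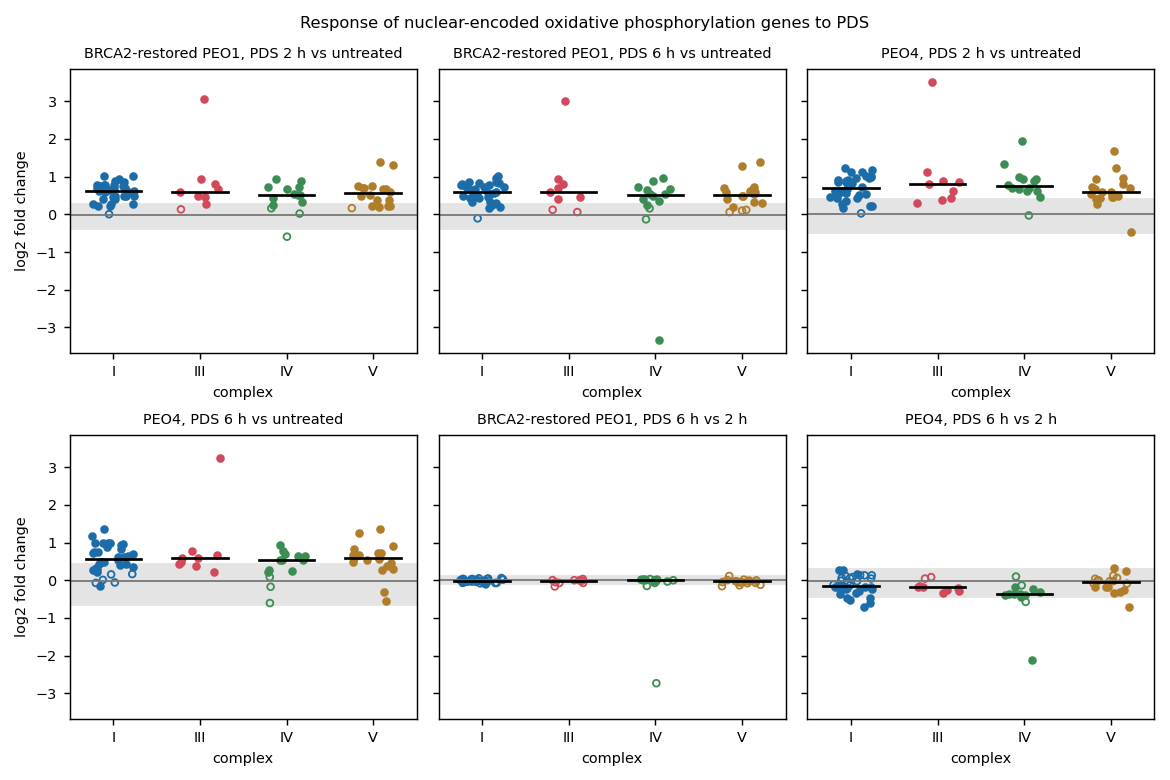
Log2 fold change of every member tested, by complex, in the 6 comparisons of the second table with PDS: each line at 2 h and 6 h against untreated, and 6 h against 2 h. Filled points passed an adjusted p of 0.05, black bars are medians of a complex, the grey line is the median and the grey band the interquartile range of all genes tested. Nearly all points lie above the band's centre against untreated cells, lie near 0 for 6 h against 2 h in PEO1 and lie mostly below 0 for 6 h against 2 h in PEO4.

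After PDS, transcripts of all 4 enzymes were higher than in untreated cells in both lines. In PEO1 B at 2 h, 69 of 75 members had risen and 0 had fallen, where 26.4% of all genes tested were higher and 26.2% lower. Among members the median log2 fold change was 0.59, a 1.5-fold rise, against -0.03 over all genes. The 0 falls held in edgeR and in DESeq2, and 70 of 75 members had an unadjusted p under 0.05, in either direction, against 9794 of 17020 genes. The rise was moderate in size: 5 members passed an absolute log2 fold change of 1 as well (7.57% of all genes did). Both times of a line share its untreated libraries, so the values at 6 h are not independent of those at 2 h. At 6 h in PEO1 B, 66 members were higher and 1, the low-count COX6B2, was lower (27% and 26% of all genes). The median was 0.56, and 5 members passed a log2 fold change of 1 (8.13% of all genes).

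PEO4 B gave a similar picture. At 2 h, 72 of 75 members were higher and 1, ATP5F1D, was lower (33.3% and 32% of all genes), with a median of 0.69 against 0.00 over all genes, and 12 members passed an absolute log2 fold change of 1 (17.4% of all genes). At 6 h, 64 were higher and 3 lower (34.6% and 35.2% of all genes), the median was 0.55, and 5 passed a log2 fold change of 1 (22.6% of all genes). The 3 lower members were ATP5F1D, ATP5MC2 and NDUFS8. Fewer cells and less RNA per cell cannot be told apart in bulk libraries, so each value is a share of a library's counts.

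The rise was spread over the enzymes. Complex I had 33 of 34 members higher in each line at 2 h, with medians of 0.62 in PEO1 B and 0.69 in PEO4 B. Complex III had 8 and 9 of 9 higher (medians 0.59 and 0.80), complex IV 11 and 13 of 14 (medians 0.51 and 0.74) and complex V 17 and 17 of 18 (medians 0.56 and 0.59). The summed level of complex I genes was 2134 to 2168 CPM in untreated PEO1 B and 3071 to 3464 CPM at 2 h, and 2020 to 2246 CPM in untreated PEO4 B and 3321 to 3571 CPM at 2 h. For complex IV the sums were 1006 to 1057 and 1424 to 1578 CPM in PEO1 B, and 1116 to 1268 and 1953 to 2103 CPM in PEO4 B. In each of these 4 cases all treated libraries lay above all untreated ones. Beside these sums, the share of ribosomal RNA and the total counts of the same libraries also separated treated from untreated, and their part in the result was not tested.

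ATP5ME, subunit e of ATP synthase (chromosome 4, 672436 to 674276), which sits where 2 synthases join, rose in both lines. In untreated PEO1 B its libraries had 50.8, 45.7 and 44.96 CPM, at 2 h 127, 115 and 108 CPM and at 6 h 116, 129 and 99.7 CPM. In PEO4 B they had 76.1, 79.0 and 73.0 CPM untreated, 225, 244 and 254 CPM at 2 h and 190, 197 and 196 CPM at 6 h. Every treated library lay above every untreated one of its line. The log2 fold change was 1.31 (SE 0.079) at 2 h and 1.28 at 6 h in PEO1 B, and 1.67 (SE 0.078) and 1.36 in PEO4 B, where adjusted p was 7.6e-15 and 1.9e-13.

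Other named members rose with it. In complex I, NDUFS6, an accessory subunit of the NADH-oxidising arm, went from 54.6, 57.3 and 55.4 CPM to 122, 112 and 106 CPM at 2 h in PEO1 B (log2 fold change 1.02, SE 0.076), and in PEO4 B its log2 fold change was 0.81. NDUFA12 had the largest rise of complex I in PEO4 B, from 24.9, 28.4 and 21.7 CPM to 56.7, 53.9 and 64.0 CPM at 2 h and to 66.0, 61.9 and 63.2 CPM at 6 h (1.22 and 1.35). NDUFA1, a small subunit of the membrane arm, rose by 1.01 in PEO1 B and 1.02 in PEO4 B at 2 h, and NDUFS4 by 0.89 and 1.17. NDUFB10 rose by 1.17 at 6 h in PEO4 B.

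In complexes III and IV, UQCRB rose by 0.93 at 2 h in PEO1 B and 1.13 in PEO4 B. COX4I1 went from 141, 148 and 135 CPM to 288, 267 and 252 CPM at 2 h in PEO1 B (0.93, SE 0.060), and from 106, 109 and 101 CPM to 195, 205 and 204 CPM in PEO4 B (0.94). COX7A2 rose by 0.89 and 1.32 at 2 h and COX7B by 0.72 in PEO1 B. In complex V, ATP5MD rose by 0.70 and 1.21 at 2 h. No treated library of these members overlapped with the untreated ones of its line.

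A few members did not follow. ATP5F1D, the delta subunit of the rotating stalk of ATP synthase (chromosome 19, 1241751 to 1244825), had 68.0, 63.0 and 56.5 CPM in untreated PEO4 B, 42.1, 46.1 and 47.6 CPM at 2 h and 39.4, 44.4 and 43.9 CPM at 6 h. The treated libraries lay below the untreated ones, with log2 fold changes of -0.47 and -0.56, while in PEO1 B the values were 0.16 and 0.12 and did not pass the test. UQCRFS1, the Rieske iron-sulfur protein of complex III, had 0.13 and 0.06 in PEO1 B, neither past the test, and 0.38 and 0.22 in PEO4 B. NDUFS1 had 0.00 and -0.11 in PEO1 B, neither past the test. NDUFA4L2 did not pass in any of the 4 comparisons (-0.60 to 0.02).

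**Figure D4:**
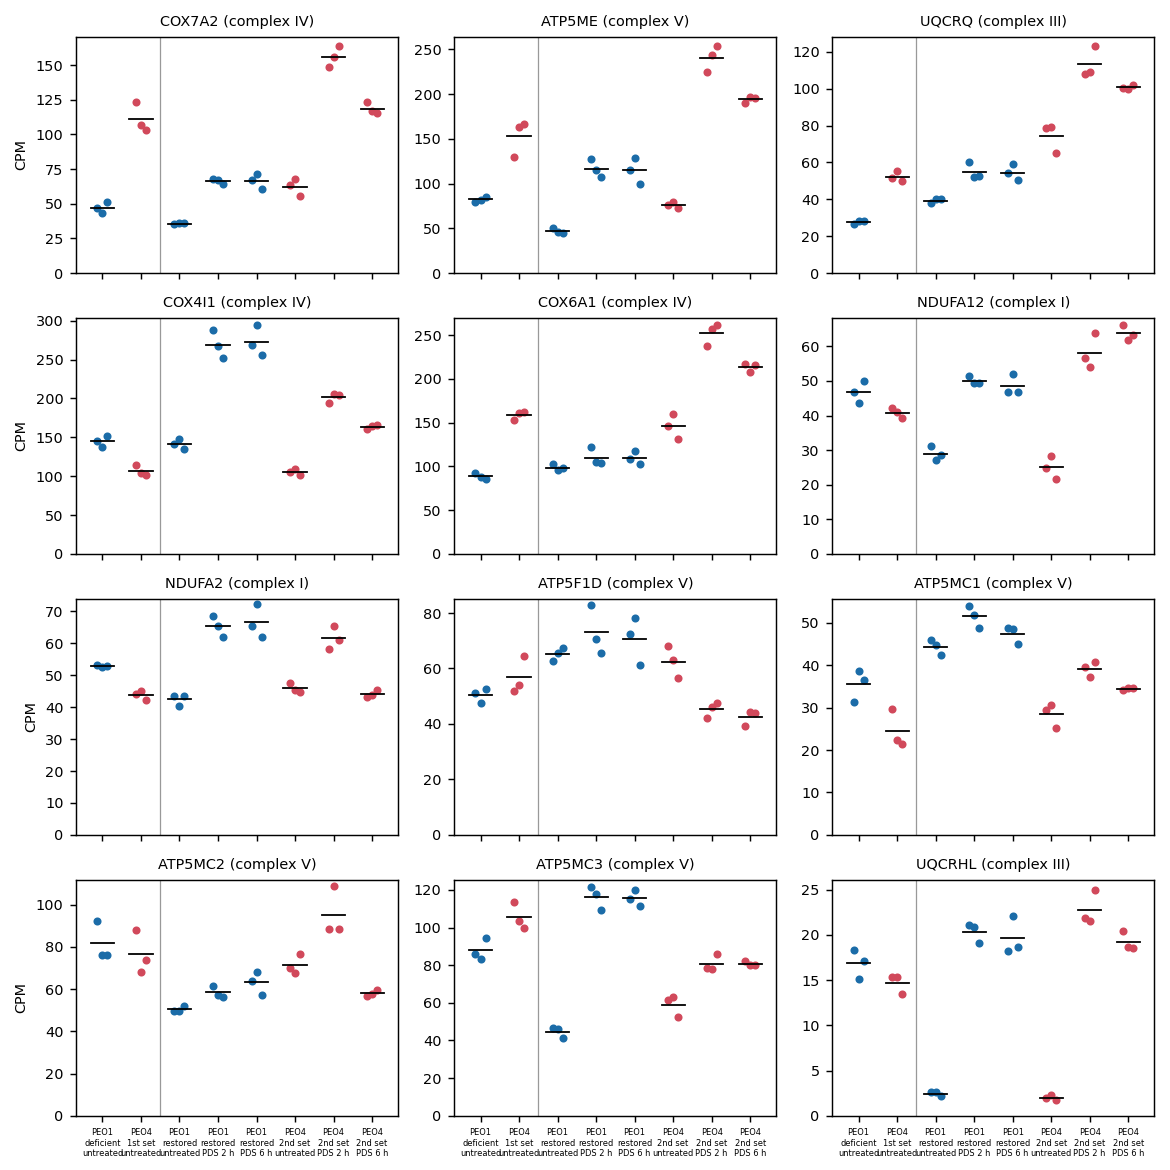
Normalized level (CPM) of 12 members in every library of the 8 conditions. Blue points are PEO1 and red points PEO4 libraries, short bars are means, and a vertical line separates the 2 tables, which were scaled separately. ATP5F1D falls with PDS in PEO4 alone, ATP5MC3 rises most in PEO1, and UQCRHL is at 1.797 to 2.603 CPM in the untreated libraries of the second table and at 13.41 to 24.96 CPM elsewhere.

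UQCRHL had the largest rise of the members in all 4 comparisons with untreated cells, and its values need the library measures beside them. It had 54, 63 and 49 counts in untreated PEO1 B, 669, 806 and 639 at 2 h and 671, 727 and 634 at 6 h, and 45, 46 and 39 counts in untreated PEO4 B, 787, 761 and 1040 at 2 h and 855, 612 and 618 at 6 h. The log2 fold changes were 3.05 and 3.00 in PEO1 B and 3.50 and 3.25 in PEO4 B, against 0.59, 0.58, 0.86 and 0.68 for UQCRH. Of the counts on both genes, UQCRHL took 1.19 to 1.62% in the 6 untreated libraries, 6.81 to 7.94% in the 12 treated ones and 6.27 to 7.21% in the 6 untreated libraries of the first table. The range in untreated cells of the first table thus overlapped that in treated cells of the second. Given the 98.6% identity of the coding sequences, how reads were divided between the genes is uncertain. Without UQCRHL the median of the members was 0.59 and 0.55 in PEO1 B and 0.68 and 0.55 in PEO4 B.

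When libraries were scaled by their totals instead of TMM, the median of all genes tested moved by -0.13 to -0.16 in the 4 comparisons with untreated cells. The members' medians became 0.44 and 0.41 in PEO1 B and 0.56 and 0.39 in PEO4 B, with 59, 60, 69 and 56 members higher and 1, 2, 1 and 6 lower. With that scaling 16.7, 17.5, 26.0 and 26.6% of all genes were higher and 37.3, 37.0, 39.7 and 43.5% lower. The members' median exceeded that of all genes by 0.58 to 0.68 with either scaling.

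The members are short and highly expressed, and all short genes and all highly expressed genes were described separately. Their median transcript has 744 bases, against 3035 over all genes tested. In PEO1 B at 2 h and 6 h and in PEO4 B at 2 h and 6 h, the 1826 genes with a transcript under 1000 bases had medians of -0.06, -0.02, 0.04 and -0.06. The 4732 genes at or above the members' lower quartile of level had medians of 0.14, 0.14, 0.13 and 0.26. Members under 1000 bases had a median of 0.62 at 2 h in PEO1 B and 0.80 in PEO4 B, and longer ones 0.51 and 0.61.

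The change from 2 h to 6 h of PDS was tested within each line, and the difference between the lines in this change was not tested. In PEO1 B, 0 of 75 members passed the test in either direction by edgeR, where 3.96% of all genes were higher and 2.98% lower at 6 h, and none passed a log2 fold change of 1 (0.17% of all genes). Of the members, 5 had an unadjusted p under 0.05, DESeq2 called 1 lower, and a fit to only the groups compared called 3 lower. The median was -0.02. In PEO4 B, 5 members were higher and 41 lower at 6 h, where 28.9% of all genes were higher and 31.3% lower, and the median was -0.18 against -0.02 over all genes. Without the PEO4 B 2 h replicate 3, 9 members were higher. A log2 fold change of 1 was passed by 1 member, the low-count COX6B2 (12% of all genes).

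By enzyme, with no test of the difference between them, the decline in PEO4 B was as follows. In complex IV 11 of 14 members fell and 0 rose (median -0.37), in complex III 6 of 9 fell (median -0.18), in complex I 17 of 34 fell and 3 rose (median -0.15), and in complex V 7 of 18 fell and 2 rose (median -0.06). ATP5MC2 had 88.3, 109 and 88.7 CPM at 2 h and 56.7, 57.7 and 59.7 CPM at 6 h (-0.72, SE 0.074, adjusted p = 1.3e-08). NDUFA11, an accessory subunit of the membrane arm of complex I, had 106, 120 and 114 CPM at 2 h and 68.7, 67.0 and 72.9 CPM at 6 h (-0.70, SE 0.075). The times did not overlap for either gene. COX6C fell by 0.44, COX5B by 0.40, NDUFB1 by 0.60 and UQCRB by 0.34 on the log2 scale. The 5 that rose were ATP5F1B (0.31), NDUFA9 (0.27), NDUFB10 (0.26), ATP5PB (0.25) and NDUFS6 (0.18). ATP5F1B, the most highly expressed of these, went from 767, 711 and 792 CPM to 937, 938 and 945 CPM.

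The difference between the lines in their response was tested as an interaction in the fit to all 18 libraries. At 2 h, 20 members responded more strongly in PEO4 B than in PEO1 B (larger log2 fold change) and 3 less, where 19.3% of all genes were higher and 18% lower in this test. The median difference was 0.15 against 0.02 over all genes, and the difference was above 0 for 60 of 75 members. At 6 h, 16 had a larger and 14 a smaller log2 fold change in PEO4 B (24.4% and 23% of all genes), with a median difference of 0.04 and 39 of 75 above 0. A fit to only the groups compared gave 12 in place of 20 members at 2 h, scaling by library totals gave 29 and by the upper quartile 27. The 3 with a smaller value at 2 h became 5 without PEO4 B PDS 2 h replicate 2, 5 without its replicate 3 and 6 without the untreated PEO4 B replicate 3.

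**Figure D5:**
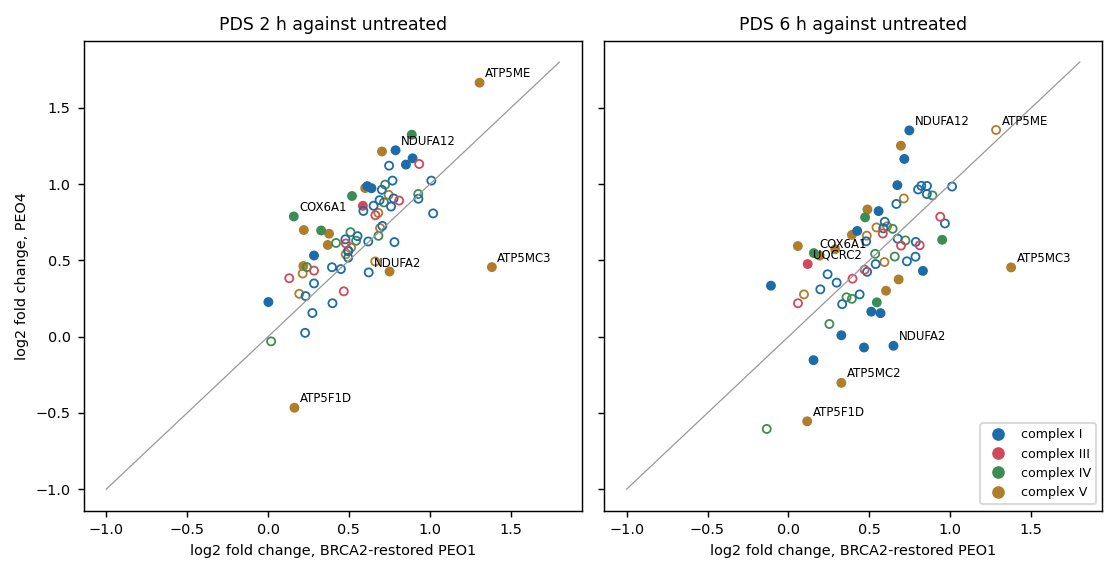
Log2 fold change with PDS against untreated cells in PEO1 B (x axis) and PEO4 B (y axis) at 2 h and 6 h, 1 point per member, with the line of equal response. Colours mark the complex, and filled points passed the test of the difference between lines. ATP5MC3 lies far to the right (1.38 in PEO1 B, 0.46 and 0.45 in PEO4 B), and ATP5F1D lies below 0 on the y axis. UQCRHL and COX6B2 are left out because their values lie beyond the axes.

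Among the differences past the test were those in the c subunit of ATP synthase, the protein of the rotor ring, which the 3 genes ATP5MC1, ATP5MC2 and ATP5MC3 encode with the same mature sequence but different import signals. ATP5MC3 (chromosome 2, 175176258 to 175181710) had 46.4, 46.1 and 41.1 CPM in untreated PEO1 B, 121, 118 and 109 CPM at 2 h and 115, 120 and 112 CPM at 6 h. In PEO4 B it had 61.4, 63.2 and 52.3 CPM untreated, 78.5, 77.9 and 86.1 CPM at 2 h and 82.2, 80.1 and 79.9 CPM at 6 h. Treated and untreated libraries did not overlap in either line. The log2 fold change was 1.38 at both times in PEO1 B and 0.46 and 0.45 in PEO4 B, a difference of -0.93 (SE 0.095, adjusted p = 4.2e-08) and -0.92 (SE 0.096, adjusted p = 3.1e-08).

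ATP5MC2 (chromosome 12) took another course. Its log2 fold change was 0.21 and 0.33 in PEO1 B, and 0.41 at 2 h and -0.30 at 6 h in PEO4 B, and the difference between lines was -0.63 at 6 h. The call in PEO1 B at 2 h was lost under 6 alternatives, among them scaling by totals and by the upper quartile, with an adjusted p of up to 0.5. ATP5MC1 (chromosome 17) had 0.22 in PEO1 B at 2 h, 0.46 and 0.28 in PEO4 B, and 0.10, not past the test, in PEO1 B at 6 h. Scaling by totals ended the calls of 0.22 (adjusted p of up to 0.36, also with the upper quartile) and 0.28 (adjusted p = 0.11), and the difference between lines in ATP5MC1 at 2 h (0.25) was lost under 11 alternatives. Per kilobase, ATP5MC2 had the highest level of the 3 in all 8 conditions (79.7 to 151 CPM per kilobase), ATP5MC1 had 37.9 to 79.9 and ATP5MC3 had 17.2 to 44.9. This order depends on the reference transcripts, of 632 bases for ATP5MC2 and 2587 for ATP5MC3. In CPM, ATP5MC2 had a mean of 50.4 against 44.6 for ATP5MC3 in untreated PEO1 B, and 58.4 against 116 at 2 h.

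COX6A1 differed in the other direction. Its libraries had 102, 95.4 and 98.1 CPM in untreated PEO1 B and 122, 105 and 104 CPM at 2 h, with a log2 fold change of 0.16 that did not pass the test. In PEO4 B they had 146, 160 and 131 CPM untreated, 237, 257 and 261 CPM at 2 h and 217, 208 and 216 CPM at 6 h (0.79 and 0.55). The difference between lines was 0.63 (SE 0.10, adjusted p = 2.0e-05) at 2 h and 0.39 (adjusted p = 0.0023) at 6 h. NDUFA12 differed by 0.43 at 2 h, UQCRC2, a core protein of complex III, by 0.36 at 6 h, and NDUFA2 by -0.71 at 6 h. UQCRH differed by 0.27 at 2 h (adjusted p = 0.018), a call that was lost under 4 alternatives with an adjusted p of up to 0.069.

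COX6B2, the testis isoform of subunit 6B, was tested at very low counts. It passed the filter on low counts only through PEO4 B, the line where it is high. Comparisons of the lines are therefore not a fair test of it. It had 2, 3 and 4 counts in untreated PEO1 B, 2, 4 and 3 at 2 h and 0, 0 and 1 at 6 h. In PEO4 B it had 14, 7 and 7 counts untreated, 42, 85 and 62 at 2 h and 12, 15 and 14 at 6 h, so that the 2 h libraries lay above all others. The difference between lines was 2.55 at 2 h and 3.15 at 6 h on the log2 scale, fitted values that depend on the prior count at such levels, and both calls were lost under some alternatives. The first was lost without the untreated PEO1 B replicate 3 (adjusted p = 0.079), and the second without that library and without PEO1 B PDS 6 h replicate 1 or 2 (adjusted p of up to 0.076). Its general counterpart COX6B1 had means of 67.3 to 150 CPM in the same table.

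Genes linked to the same enzymes by function but not by name were described from fixed lists. CYCS, cytochrome c, rose by 1.01 and 1.10 at 2 h and 6 h in PEO1 B and by 1.27 and 1.72 in PEO4 B, where it rose further from 2 h to 6 h (0.44, adjusted p = 3.0e-06). With CYC1, NDUFAB1 and DMAC1, which the symbols do not cover either, it made up a list of 4, of which 3, 3, 4 and 4 were higher in these comparisons. The subunits encoded in mitochondrial DNA were not analysed here. Of the 4 genes of complex II (succinate dehydrogenase), 3 were higher at each time in PEO1 B and 4, then 3, in PEO4 B, where 1 was lower at 6 h. SDHB, its iron-sulfur subunit, rose by 0.70, 0.60, 0.89 and 0.98. Of 52 assembly factors, which help to build the enzymes, 35 and 34 were higher and 4 and 4 lower in PEO1 B, and 38 and 37 were higher and 1 and 5 lower in PEO4 B, with medians of 0.28 to 0.39. Of 14 genes of the TCA cycle, 10, 8, 9 and 11 were higher and 0, 0, 1 and 2 lower in the same order (medians 0.21 to 0.51). Of 19 genes of glycolysis, 10, 10, 10 and 13 were higher and 3, 3, 3 and 4 lower (medians 0.18 to 0.32). Among 13 regulators of mitochondrial biogenesis, 4, 5, 6 and 9 were higher and 2, 2, 5 and 1 lower. Their medians were 0.057, 0.095, -0.017 and 0.328, near 0 in all but the last. PPARGC1A, the coactivator, was higher in PEO4 than in PEO1 without treatment by 4.53 and 3.50 on the log2 scale. It fell in PEO4 B with PDS by 1.58 and 1.94, from a mean of 4.34 CPM to 1.46 and 1.13 CPM. Of the 13 regulators, 5 were lower in PEO4 B at 2 h, PPARGC1A among them. At 6 h PPARGC1A alone was lower. With PDS in PEO4 B, TFB1M rose by 1.88 and 1.73. PPARGC1B had a lower mean at 2 h (5.84 CPM) than in untreated PEO4 B (7.114 CPM), and at 6 h it had risen by 1.08. Without treatment, 6 of the 13 were higher and 4 lower in PEO4 A than in PEO1 A (30.1% and 31.6% of all genes). In PEO4 B 1 was higher and 8 were lower than in PEO1 B (34% and 34.6% of all genes).

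Ribosomal protein genes were described in the same way, beside the same shares of all genes. From 2 h to 6 h in PEO4 B, 28.9% of all genes rose and 31.3% fell. Of 81 cytosolic ribosomal protein genes tested, 71, 70, 78 and 73 were higher in the 4 comparisons of PDS with untreated cells in the same order, with medians of 0.59, 0.59, 0.79 and 0.53, and in PEO4 B 71 fell from 2 h to 6 h (median -0.34). Of 77 mitochondrial ribosomal protein genes, 62, 63, 69 and 67 were higher, with medians of 0.40, 0.42, 0.54 and 0.71, and from 2 h to 6 h in PEO4 B 39 rose and 13 fell (median 0.16). Medians of the same size as those of the oxidative phosphorylation genes were thus also measured in another large group of genes.

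Among members with a promoter that were tested, those with and without a motif were set side by side, with no test. At 2 h the 10 with an NRF1 core had a median log2 fold change of 0.49 in PEO1 B and 0.62 in PEO4 B, against 0.62 and 0.73 for the 49 without. The 6 with a YY1 core had 0.47 and 0.50, against 0.60 and 0.79 for the 53 without. The 8 with an ETS core had 0.57 and 0.67, against 0.60 and 0.73 for the 51 without, and at 6 h in PEO4 B they had 0.41 against 0.62, and -0.32 against -0.17 for 6 h against 2 h. The 9 with a G-quadruplex pattern had 0.69 and 0.81, against 0.55 and 0.66 for the 50 without, and at 6 h 0.59 and 0.49, against 0.54 and 0.59. These are descriptions of few genes, and a pattern in the sequence is not a measured structure.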

How the data were processed

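RNA-seq libraries of 8 conditions were analysed. The authors deposited whole-number counts per gene, not normalized, in a table of 6 and a table of 18 libraries. Their methods and processing notes name FastQC, fastp, STAR with hg38 and featureCounts. The annotation and strand setting are not given in the sources used here. Lines without readable counts (2 and 1) were left out.

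The test was edgeR 4.0.16 in R 4.3.3 (TMM, filterByExpr with a minimum count of 10 and total of 15, robust quasi-likelihood fit of a mean per group, 1 fit per table). p-values were adjusted by Benjamini-Hochberg over 15882 and 17020 genes, and called under 0.05, 2-sided. The script was tested on simulated data. CPM are TMM-normalized, and lengths come from GENCODE release 44.

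The members and gene lists were chosen with earlier results of these data known. Named members were, per comparison and complex, the 2 with the largest log2 fold change (1 for line differences) among those past the test, without overlap between groups and with a log2 CPM averaging 3 or more, plus isoform families, members past a log2 fold change of 1 and the leaders of both untreated pairs. Members named outside these rules were chosen after their values were seen. They are ATP5F1D, UQCRFS1, NDUFS8, ATP5PB, ATP5F1B, those with opposite signs and, for 6 h against 2 h, NDUFA9, NDUFB10 and NDUFS6. Some members that the rules named in 1 comparison were also given in others, such as NDUFS1 with PDS in PEO1 B. Alternatives were other scalings, DESeq2 1.42.0, other filters, a replicate block, fits to the groups compared and each library left out. Between same-numbered libraries of the 2 groups compared, deviations from the group mean had correlations from -0.185 to 0.064.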

Additional observations from a re-analysis of the deposited data

Results flagged for a closer look

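The response to PDS differed between PEO1 B and PEO4 B, by a test of the difference itself (by the quasi-likelihood test of edgeR, Benjamini-Hochberg adjusted), for 20 members with a larger and 3 with a smaller log2 fold change in PEO4 B at 2 h, and for 16 and 14 at 6 h. These are 26.7% and 4% of the members at 2 h, where 19.3% and 18% of all genes passed. At 6 h they are 21.3% and 18.7%, below the 24.4% and 23% of all genes. At 2 h the named members were COX6A1 (0.63), NDUFA12 (0.43), UQCRH (0.27), ATP5MC3 (-0.93) and COX6B2 (2.55). At 6 h they were COX6A1 (0.39), UQCRC2 (0.36), NDUFA2 (-0.71), ATP5MC3 (-0.92) and COX6B2 (3.15). The values of COX6B2 rest on 0 to 4 counts per library in PEO1 B, and no library outside PEO4 B at 2 h had more than 17. It passed the filter on low counts only through PEO4 B, so its line differences are not a fair test.

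In untreated cells 6 members passed the test in both pairs of lines with opposite signs, PEO4 over PEO1. Among the 35 members that passed in both pairs, 82.9% had the same sign, against 87.6% of the 7464 genes that did. The 6 were ATP5F1A (0.24 in the first pair, -0.19 in the second), ATP5PO (0.75 and -0.17), COX7A2L (-0.21 and 0.24), NDUFB3 (0.37 and -0.32), NDUFC2 (-0.52 and 0.24) and NDUFS4 (0.62 and -0.43). The difference between the pairs was not tested, since the tables are separate. COX7A2L lost its call in the first pair under 4 alternatives, with an adjusted p of up to 0.12. The other members with opposite signs were not among the named results followed through the alternatives in these pairs. By edgeR, the adjusted p was 0.047 for ATP5F1A in the first pair and 0.026 for ATP5PO in the second.

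The untreated libraries of the second table stood apart from the other 18 libraries in the share of UQCRHL within the counts of UQCRH and UQCRHL (1.19 to 1.62% against 6.27 to 7.94%).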

How the results depend on the processing

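No call of a named member changed direction under the alternatives run, but 4 medians over the members that lay near 0 changed sign. The median in the first untreated pair (-0.024) became 0.036 with the upper quartile, 0.008 without PEO1 A replicate 3 and 0.012 without PEO4 A replicate 1. That in the second pair (-0.011) became 0.058 without the untreated PEO4 B replicate 3. For 6 h against 2 h in PEO1 B (-0.024) it became 0.023 without PEO1 B PDS 2 h replicate 1 and 0.007 without PDS 6 h replicate 3, and the difference between lines at 6 h (0.035) became -0.017 without PEO1 B PDS 6 h replicate 3, -0.003 without the untreated PEO1 B replicate 1 and -0.008 without the untreated PEO4 B replicate 3. Scaling by library totals gave members' medians of 0.441 and 0.41 in PEO1 B and 0.556 and 0.389 in PEO4 B (2 h and 6 h against untreated), with 1 member lower in PEO1 B at 2 h, 2 at 6 h and 6 in PEO4 B at 6 h. Scaling by the upper quartile gave medians of 0.51 and 0.469 in PEO1 B, 0.436 in PEO4 B at 6 h and -0.228 for 6 h against 2 h in PEO4 B, with 2 members lower in PEO1 B at 6 h and 1 lower at 6 h against 2 h. DESeq2 gave 2 and 1 lower in the same comparisons. For 6 h against 2 h in PEO1 B, a minimum of 1 CPM in every library gave 2 lower, and a fit to only the groups compared gave 3. That fit gave 12 members with a larger response in PEO4 B at 2 h. With each library left out in turn, the median in PEO1 B at 2 h ranged from 0.547 to 0.636, members higher at 6 h against 2 h in PEO4 B from 4 to 9, and members with a smaller response in PEO4 B at 2 h from 3 to 6. The cause was not tested.

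Of 145 calls of named members, 21 were lost under at least 1 alternative. Same-numbered replicates did not deviate together, and the replicate block moved no count of members by more than 1.5 times (71 higher in PEO4 B at 2 h, and 23 with a larger response there). Depth limits COX6B2, NDUFA4L2 and the restricted isoforms, which had few counts.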
